A study of Mus musculus with 55 samples.

Results

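The genes described here are 10 components and outputs of the circadian clock, Per1, Per2, Per3, Cry1, Cry2, Nr1d1, Nr1d2, Dbp, Bhlhe40 and Ciart. They were picked by name, with earlier results of these data known, and each was represented by its RefSeq transcript with the most counts. All 10 were found among the 28492 genes counted in the maturation experiment and the 28216 counted in the stimuli experiment. RNA came from primary neurons of cortex and hippocampus of CD1 mouse embryos of embryonic day 16 to 17.5, both sexes mixed. The methods of the study give a single age within this range. In the maturation experiment (28 samples), cultures of 7DIV and 23DIV (days in vitro) were left basal or given 55 mM KCl, which depolarizes the membrane, or Bic+4AP, that is, 50 μM bicuculline, a GABA-A receptor blocker, with 2.5 mM 4-aminopyridine, a potassium channel blocker, for 15 or 180 min. Each of these groups had 3 samples, except Bic+4AP at 23DIV, which had 2 at each time. In the stimuli experiment (27 samples), 21DIV cultures were given 55 mM KCl or 50 μM bicuculline alone (Bic) for 15, 45 or 180 min and compared with basal cultures (n = 3), with 2 samples for each stimulus and time. Other 21DIV cultures were silenced with 1 μM of the sodium channel blocker TTX for 48 h (basal TTX, n = 4) and then sampled 15, 45 or 180 min after the toxin was washed out (TTXw, n = 3, 2 and 3). The labels give 23DIV for the mature maturation samples, which the study groups with its 21DIV cultures.

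The clock of mammalian cells is a transcriptional feedback loop. The activators CLOCK (or NPAS2) and BMAL1, the product of Arntl, bind E-box sequences and drive the genes of the PER and CRY proteins, which return to the nucleus to repress them. REV-ERB proteins (Nr1d1, Nr1d2) repress Arntl in a second loop, while DBP, an activator acting at D-boxes, is a clock output, and the E-box repressors BHLHE40 and CIART close further loops. Per1 and Per2 are also known in the brain as genes induced by calcium and cAMP signals through CREB, which is how light resets the master clock. Stimulated samples were set against basal samples labelled 0 min, no basal sample was matched in time to the later samples, and the clock time of harvest is not given in the sources used here. An effect of a stimulus therefore cannot be told apart from one of elapsed time.

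Upstream sequences of 4 members that carry such elements are shown, chosen for their E-boxes (Ciart, Cry1, Per1) or D-boxes (Per3). RefSeq start sites on GRCm38.p6, the build of the files (mm10), were available for 8 of the 10 members, with a pair of start sites for Per1, and those of Per2 and Bhlhe40 were not among them. The 250 bases before each start site were searched on both strands for the E-box CACGTG, the D-box TTATGTAA or TTACGTAA, and TGACG, the core of the CREB element TGACGTCA, which it overlaps. The E-box occurred upstream of Ciart, Cry1 and Per1 (3 of the 8 members), against 6.02% of the 32851 upstream windows of all genes. The D-box occurred only in the window of Per3, against 0.931% of all windows. The core TGACG, or its reverse complement CGTCA, occurred upstream of Per1, at both start sites, of Cry1 and of Cry2, against 17.8% of all windows, and the full element, held by 1.55% of all windows, was in no window of these 8 members. The sequences are from Ciart (chr3:95882229-95882478, minus strand), Cry1 (chr10:85185055-85185304, minus strand), the first Per1 start site (chr11:69098699-69098948, plus strand), the other Per1 start site (chr11:69099902-69100151, plus strand) and Per3 (chr4:151044666-151044915, minus strand). Capitals mark E-boxes, D-boxes and CRE cores, and each sequence ends at the base before the start site.
Ciart: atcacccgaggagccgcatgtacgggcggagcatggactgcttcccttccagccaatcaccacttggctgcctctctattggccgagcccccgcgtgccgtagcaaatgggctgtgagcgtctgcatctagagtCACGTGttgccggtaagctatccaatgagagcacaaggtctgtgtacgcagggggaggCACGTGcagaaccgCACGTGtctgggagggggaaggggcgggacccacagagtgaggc
Cry1: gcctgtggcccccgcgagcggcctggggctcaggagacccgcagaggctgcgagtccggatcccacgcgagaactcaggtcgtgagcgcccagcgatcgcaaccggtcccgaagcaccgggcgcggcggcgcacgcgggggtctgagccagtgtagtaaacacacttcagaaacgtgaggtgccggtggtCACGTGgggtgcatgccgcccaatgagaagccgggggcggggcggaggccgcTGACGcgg
Per1, first start site: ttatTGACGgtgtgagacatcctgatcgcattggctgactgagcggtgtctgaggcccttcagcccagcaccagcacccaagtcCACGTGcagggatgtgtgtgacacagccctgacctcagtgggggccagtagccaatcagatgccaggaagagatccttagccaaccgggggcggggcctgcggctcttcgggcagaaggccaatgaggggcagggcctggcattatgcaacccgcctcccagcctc
Per1, other start site: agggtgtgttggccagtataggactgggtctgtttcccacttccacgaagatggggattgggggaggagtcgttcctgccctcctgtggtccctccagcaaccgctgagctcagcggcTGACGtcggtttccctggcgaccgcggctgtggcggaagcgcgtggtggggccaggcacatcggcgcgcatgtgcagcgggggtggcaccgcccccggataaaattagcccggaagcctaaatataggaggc
Per3: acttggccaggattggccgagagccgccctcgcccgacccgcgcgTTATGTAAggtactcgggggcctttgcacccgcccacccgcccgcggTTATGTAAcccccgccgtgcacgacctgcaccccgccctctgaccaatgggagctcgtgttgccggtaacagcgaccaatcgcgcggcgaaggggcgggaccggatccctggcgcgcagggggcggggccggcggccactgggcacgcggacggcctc
Ciart held 3 E-boxes, at 116, 58 and 44 bases before its start site, and Per3 held D-boxes at 205 and 158 bases before its start site. A match of letters is a description and does not show that a factor binds there.

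The libraries held 1659722 to 4474968 counts at 7DIV, 1784170 to 14012872 at 23DIV and 1177500 to 3909487 in the stimuli experiment. Levels are given as CPM, the counts scaled to library size after TMM normalization, separately for each experiment, and levels of different genes or experiments were not compared. Fos, Npas4 and Arc, genes induced by neuronal activity, checked the labels. At 23DIV all 3 rose with Bic+4AP at both times. At 7DIV the only rises among them that passed the threshold used below were those of Fos and Npas4 at 180 min of KCl. Fos at 180 min of Bic+4AP at 7DIV had 97.1 to 144 CPM, above the 64.4 to 77.2 CPM of basal cultures, without passing. At 21DIV all 3 had higher means with KCl and Bic at each time than in basal cultures. With TTXw, Npas4 had means of 9.35, 23.1 and 12.8 CPM at 15, 45 and 180 min, against 9.96 CPM in basal TTX. Means of Fos and Arc were higher than in basal TTX at each time. Each library correlated with the others of its group at 0.944 or more (log2 CPM, mean over the group). Of the 55 libraries, 18 correlated better with another group than with their own, among them the 3 of 7DIV basal, both of Bic+4AP at 15 min at 23DIV (nearest to 23DIV basal, 0.950 and 0.964 against 0.944), Bic 15 min replicate 2 (nearest to KCl at 15 min, 0.978 against 0.963) and KCl 180 min replicate 2 at 21DIV (nearest to Bic at 180 min, 0.971 against 0.963). A basal library of the stimuli experiment has replicate number 5 in its title and 2 in its description, and the title was followed in its name and in the replicate block. The neuronal markers Rbfox3, Map2, Tubb3, Snap25 and Syt1 were detected in every group, with a summed level of 2024 to 5397 CPM in the groups at 21DIV.

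Maturation went along with changes in clock genes of both directions. In the position code of their labels, basal libraries of 7DIV carry the letters A and B, and those of 23DIV C and D. Stage cannot be told apart from what these letters stand for, which the labels do not say. Between basal cultures of 7DIV and 23DIV (n = 3 each), Dbp, Nr1d2 and Nr1d1 rose and Per1 and Cry1 fell, so that 5 of the 9 members tested changed. Among all 10510 genes tested 33.1% passed the same threshold, an adjusted p under 0.05 (quasi-likelihood test of edgeR, p adjusted by Benjamini and Hochberg's method, used throughout) and a change of at least 1.5-fold. The median log2 fold change was 0.73 over the members and 0.01 over all genes. Dbp was at 1.42, 0.613 and 2.71 CPM at 7DIV, from 1 to 10 counts per library, and at 8.30, 15.4 and 14.6 CPM at 23DIV. The stages did not overlap, and the log2 fold change was 2.83 (SE 0.48, adjusted p = 0.00038 in edgeR). Nr1d2 had 19.9, 29.4 and 31.7 CPM at 7DIV and 116, 180 and 164 CPM at 23DIV, a change of 2.52 on the log2 scale (SE 0.22, adjusted p = 1.05e-06 in edgeR), or 5.74-fold. Its paralog Nr1d1 went from 32.7, 31.3 and 21.9 CPM to 76.9, 87.3 and 119 CPM, a log2 fold change of 1.78 (SE 0.22, adjusted p = 2.61e-05 in edgeR). Both REV-ERB genes thus had every 23DIV sample above every 7DIV sample.

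Cry1, which encodes a repressor of CLOCK and BMAL1, had 69.6, 88.3 and 56.6 CPM at 7DIV and 41.8, 40.2 and 32.97 CPM at 23DIV, and fell by 0.86 on the log2 scale (SE 0.20, adjusted p = 0.0034 in edgeR). Per1 had 25.6, 16.6 and 14.6 CPM at 7DIV and 11.6, 8.23 and 10.4 CPM at 23DIV. It fell by 0.87 (SE 0.29, adjusted p = 0.031 in edgeR), but the call was lost without 7DIV basal replicate 2 (adjusted p = 0.15), 23DIV basal replicate 2 (adjusted p = 0.095) or 23DIV basal replicate 3 (adjusted p = 0.079). The other 4 members tested did not pass. Per2 had a log2 fold change of -0.83 (SE 0.33, adjusted p = 0.061 in edgeR), with 40.3, 15.9 and 23.8 CPM at 7DIV overlapping 10.6, 13.4 and 20.1 CPM at 23DIV. Bhlhe40 had a log2 fold change of 1.498 with a wide error (SE 0.65, adjusted p = 0.083 in edgeR), on 1 to 6 counts per library at 7DIV and 11 to 63 counts at 23DIV. Ciart had 47.4, 7.97 and 17.1 CPM at 7DIV and 40.5, 21.6 and 55.4 CPM at 23DIV, so the stages overlapped (log2 fold change 0.73, SE 0.45, adjusted p = 0.22 in edgeR). Cry2 had 18, 19.0 and 15.2 CPM at 7DIV and 20.6, 20.7 and 24.3 CPM at 23DIV, without overlap, but its log2 fold change of 0.38 did not pass (SE 0.23, adjusted p = 0.21 in edgeR). Per3 did not pass the filter of 5 CPM in at least 2 of these samples and had 0 to 5 counts per library at 7DIV and 12 to 42 counts at 23DIV.

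Of 23 further clock genes, 18 were tested between the stages and 11 changed, 7 upward and 4 downward. Besides Dbp, the other genes of its PAR bZIP family rose, Hlf by 2.18 (SE 0.31, adjusted p = 0.00010 in edgeR) and Tef by 1.63 on the log2 scale (SE 0.17, adjusted p = 7.43e-06 in edgeR). Nfil3, whose product represses at the same D-boxes, fell by 3.44 on the log2 scale (SE 0.20, adjusted p = 4.17e-08 in edgeR), from 214 to 270.5 CPM at 7DIV to 14.7 to 26.3 CPM at 23DIV. The other rises were those of Bhlhe41 (2.75), Rora (1.98), Npas2 (1.74), Usp2 (1.14) and Noct (0.60), and the other falls those of Csnk1e (-1.27), Gsk3b (-0.66) and Rorb (-0.60), all as log2 fold changes. Neither Arntl nor Clock passed the test. Marker genes of glia moved with stage as well. The summed level of 6 astrocyte markers was 204 to 324 CPM at 7DIV and 1310 to 1502 CPM at 23DIV, with 5 of 6 higher, and that of 6 oligodendrocyte lineage markers was 264 to 371 CPM and 1248 to 1315 CPM, with 5 of 5 tested higher. Neuronal markers summed to 3582 to 3875 CPM and 3815 to 4682 CPM, with 3 of 5 higher and 2 lower. Markers of microglia summed to at most 17.2 CPM and those of fibroblasts and vessels to at most 20.6 CPM, with C1qa and P2ry12 at 0 at 7DIV and Cldn5 at 0 at both stages. The part of glia in the changes of clock genes was not tested, and in these bulk samples fewer cells of a type and less RNA per cell cannot be told apart.

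**Figure D1:**
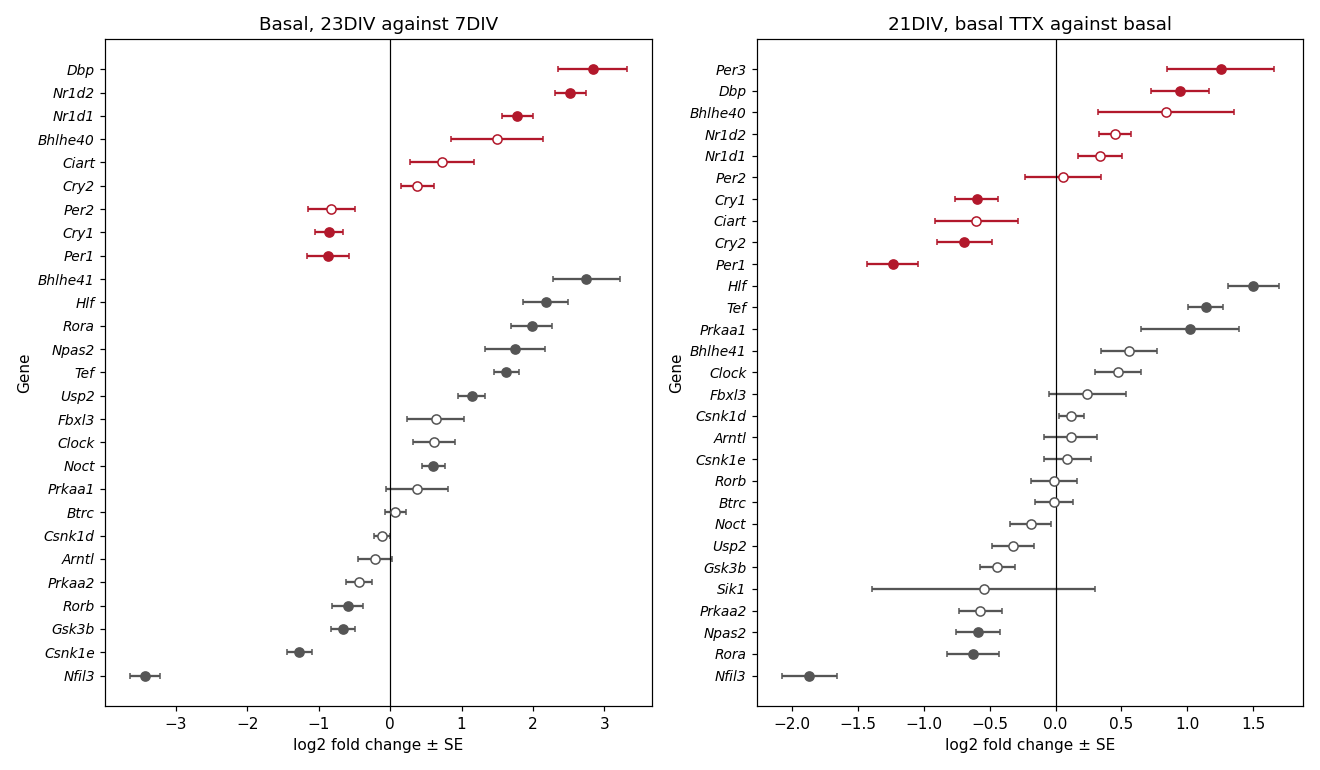
Log2 fold change ± SE (x axis) of each clock gene tested (y axis) between basal cultures of 23DIV and 7DIV (left) and between basal TTX and basal cultures of 21DIV (right). Red marks the members and grey the further clock genes, and filled points passed the threshold; Dbp, Tef and Hlf are filled to the right of 0 and Per1, Cry1 and Nfil3 to the left in both panels.

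At 7DIV stimulation changed 1 clock gene. Nr1d2 had 19.9, 29.4 and 31.7 CPM in basal cultures and 51.0, 55.7 and 56.6 CPM after 180 min of KCl, above every basal sample, a log2 fold change of 1.00 (SE 0.21, adjusted p = 0.0072 in edgeR). The call was lost without 7DIV basal replicate 2 (log2 fold change 0.83, adjusted p = 0.058). This was 1 of 10 members, against 1.98% of all 11746 genes. None of the 10 members passed with KCl at 15 min or with Bic+4AP at 15 or 180 min, where 0.0% of all genes passed in each comparison in edgeR. At an unadjusted p under 0.05 these comparisons held 659, 793 and 701 genes, and DESeq2 called 3, 3 and 0 genes.

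At 23DIV most members that passed did so at 180 min. Of these, only Per1 with Bic+4AP also passed between 15 and 180 min at this stage. Ciart, whose product also represses CLOCK and BMAL1, had 40.5, 21.6 and 55.4 CPM in basal cultures, 128, 142 and 142 CPM after 180 min of KCl and 124 and 97.7 CPM after 180 min of Bic+4AP, with no overlap. Its log2 fold change was 1.80 with KCl (SE 0.40, adjusted p = 0.0059 in edgeR) and 1.49 with Bic+4AP (SE 0.43, adjusted p = 0.017 in edgeR). At 15 min, without passing, Ciart had 21.4, 61.7 and 101 CPM with KCl and 101 and 63.5 CPM with Bic+4AP, the latter above every basal sample. Per1 had 11.6, 8.23 and 10.4 CPM in basal cultures, 13.8, 26.3 and 25.5 CPM after KCl and 45.3 and 24.1 CPM after Bic+4AP, each sample again above the basal ones. It rose by 1.11 with KCl (SE 0.28, adjusted p = 0.017 in edgeR) and by 1.79 with Bic+4AP on the log2 scale (SE 0.30, adjusted p = 0.00014 in edgeR), 3.46-fold. With any 1 sample left out the log2 fold change with Bic+4AP lay between 1.25 and 2.16 and was called. Cry1 rose with KCl alone, from 41.8, 40.2 and 32.97 CPM to 51.4, 78.4 and 66.3 CPM (log2 fold change 0.77, SE 0.22, adjusted p = 0.036 in edgeR), and had 71.5 and 31.5 CPM with Bic+4AP, a spread that reached below the basal level. Nr1d1 rose with Bic+4AP, from 76.9, 87.3 and 119 CPM to 160 and 171 CPM (log2 fold change 0.81, SE 0.22, adjusted p = 0.011 in edgeR). These were 3 of 10 members in each comparison, against 4.89% of all genes with KCl and 14.2% with Bic+4AP. The median log2 fold change was 0.29 and 0.52 over the members and -0.02 over all genes in both comparisons. In the position code of their labels, the libraries of Bic+4AP at 180 min carry the letter E and the basal ones C or D. In this comparison the stimulus cannot be told apart from what the letter stands for.

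Several of these calls rested on single libraries. With KCl at 180 min, the call of Per1 was lost without KCl replicate 2 (adjusted p = 0.12), KCl replicate 3 (0.089), basal replicate 2 (0.087) or basal replicate 3 (0.063), and that of Cry1 without KCl replicate 2 (0.21), KCl replicate 3 (0.11), basal replicate 2 (0.083) or basal replicate 3 (0.17). Ciart lost its call with KCl without basal replicate 2 (adjusted p = 0.053), and with Bic+4AP without basal replicate 2 (0.095) or Bic+4AP replicate 2 (0.16). Nr1d1 lost its call with Bic+4AP without either Bic+4AP sample (adjusted p = 0.061 and 0.077). All these are adjusted p of edgeR's quasi-likelihood test, and the direction of change was kept in each. Some calls were also lost with all samples kept. That of Ciart with Bic+4AP was lost in DESeq2 (adjusted p = 0.0506) and with counts summed over transcripts (0.057 in edgeR). With KCl, that of Cry1 was lost with summed transcripts (0.076 in edgeR) and that of Per1 with counts thinned to the smallest library (0.11 in edgeR).

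At 15 min, Nr1d2 was the member that changed at 23DIV. It had 116, 180 and 164 CPM in basal cultures and 78.5, 85.1 and 93.2 CPM with KCl, and fell by 0.85 on the log2 scale (SE 0.18, adjusted p = 0.0028 in edgeR), 1 of 10 members against 6.23% of all genes. With Bic+4AP at 15 min it had 127 and 132 CPM, within the basal range, and no member passed, against 0.0511% of all genes. Per1 had 14.3, 15.2 and 22.4 CPM with KCl at 15 min, above the 3 basal samples, but did not pass (log2 fold change 0.77, SE 0.28, adjusted p = 0.090 in edgeR). Per2 passed in none of the 8 comparisons of stimulated with basal cultures in the maturation experiment, nor did Per3, Cry2, Dbp or Bhlhe40. Of 19 further clock genes tested, Nfil3 rose at 23DIV with KCl at 15 min (1.60) and 180 min (1.9604) and with Bic+4AP at 180 min (2.14, log2 fold changes). With Bic+4AP at 180 min, Sik1, a kinase gene known to act on the CREB coactivators, also rose (log2 fold change 2.99), on 2 to 13 counts per library in basal cultures, and Arntl (-1.24) and Prkaa2 (-0.88) fell. In the same comparison the astrocyte markers summed to 742 to 1248 CPM against 1310 to 1502 CPM in basal cultures, with 2 of 6 lower. The oligodendrocyte lineage markers summed to 457 to 679 CPM against 1248 to 1315 CPM. Of the 5 tested, 1 was higher and 2 were lower, with a median log2 fold change of 0.05. Neuronal markers summed to 3150 to 3542 CPM against 3815 to 4682 CPM, with 2 of 5 lower, and microglia markers to 19.5 to 20.6 CPM against 4.29 to 8.47 CPM, with 2 of 3 tested higher and C1qa at 0. With KCl at 23DIV, the oligodendrocyte lineage markers summed to 849 to 1004 CPM at 15 min and 707 to 818 CPM at 180 min, with 1 of 5 tested lower at each time, as was 1 of 5 neuronal markers. The median log2 fold change of the tested oligodendrocyte lineage markers was -0.31 at 15 min and 0.38 at 180 min. The part of these in the results was not tested.

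**Figure D2:**
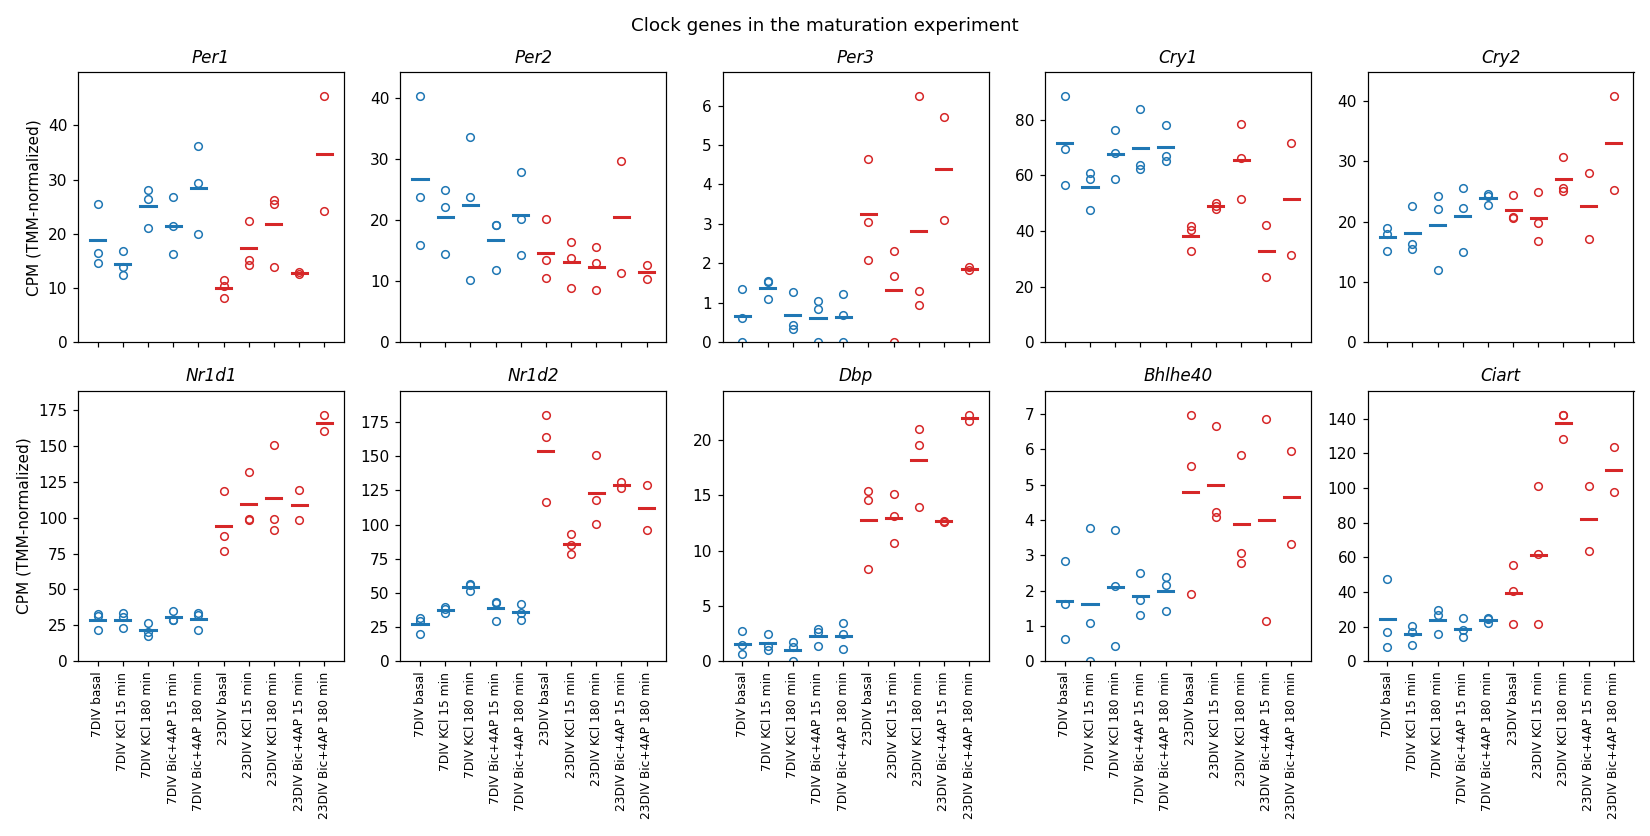
CPM (y axis, linear, from 0) of the 10 clock genes in each sample of the maturation experiment (x axis: stage, stimulus and time), with 7DIV in blue, 23DIV in red and a bar at the mean of the group. Nr1d1, Nr1d2 and Dbp sit higher at 23DIV than at 7DIV in every group, and Ciart at 23DIV is highest at 180 min of KCl, with 128 to 142 CPM.

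The response at 23DIV was then compared with the response at 7DIV, stimulus by stimulus. Nr1d2 was the member whose response differed. With KCl at 15 min the log2 fold change was -0.85 at 23DIV and 0.47 at 7DIV, a difference of -1.31 (SE 0.27, adjusted p = 0.011 in edgeR), and at 180 min it was -0.32 and 1.00, a difference of -1.32 (SE 0.27, adjusted p = 0.017 in edgeR). The difference at 180 min was not called without 7DIV basal replicate 2 (adjusted p = 0.061) or 23DIV KCl 180 min replicate 3 (adjusted p = 0.059). These were 1 of 10 members in each comparison, against 2.03% and 0.775% of all genes at an adjusted p under 0.05. With Bic+4AP, none of the 10 members passed, against 0.00851% of all genes at 15 min and 4.95% at 180 min. Nr1d2 had differences in the direction seen with KCl. They were -0.74 at 15 min (approximate 95% interval from -1.32 to -0.17) and -0.84 at 180 min (from -1.41 to -0.27). The adjusted p values were 0.97 and 0.091 in edgeR. All these comparisons share the basal libraries of each stage, so the differences of Nr1d2 are not independent of each other. For Ciart, the responses at 180 min of KCl were 1.80 at 23DIV and -0.02 at 7DIV, and for Per1 at 180 min of Bic+4AP they were 1.79 and 0.61. Neither difference passed (1.82, SE 0.62, adjusted p = 0.17, and 1.18, SE 0.42, adjusted p = 0.10 in edgeR), so a response called at 23DIV and not at 7DIV was not shown to differ between the stages for these genes.

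In the stimuli experiment, Per2 was the member induced by both KCl and Bic. It had 8.88, 14.9 and 9.86 CPM in basal cultures and 24.4 and 31.8 CPM after 15 min of KCl, a log2 fold change of 1.35 (SE 0.28, adjusted p = 0.0014 in edgeR). The same KCl treatment for 15 min at 23DIV in the maturation experiment gave Per2 a log2 fold change of -0.21 (SE 0.37, adjusted p = 0.80 in edgeR). With Bic it had 22.6 and 24.3 CPM at 15 min, 25.8 and 50.6 CPM at 45 min and 23.5 and 23.7 CPM at 180 min. Every one of these samples lay above the basal ones, and the log2 fold change was 1.06 at 15 min (SE 0.31, adjusted p = 0.041), 1.80 at 45 min (SE 0.28, adjusted p = 1.70e-05) and 1.09 at 180 min (SE 0.28), where it missed the threshold (adjusted p = 0.056, all in edgeR). With KCl it had 27.1 and 15.2 CPM at 45 min and 9.69 and 14.3 CPM at 180 min, the latter within the basal range. The call at 15 min of KCl was lost without KCl replicate 2 (adjusted p = 0.077). That at 15 min of Bic was lost without either Bic sample (adjusted p = 0.24 and 0.14), basal replicate 1 (0.18) or basal replicate 5 (0.13), and with the replicate number as a block (0.28), all in edgeR.

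Nr1d2 fell early with both stimuli, as it had with KCl at 23DIV. Basal cultures had 150, 131 and 150 CPM, and the level was 84.5 and 93.8 CPM at 15 min of KCl, 97.8 and 81.9 CPM at 15 min of Bic and 85.5 and 88.4 CPM at 45 min of Bic, all below the basal samples. The log2 fold changes were -0.68 (SE 0.15, adjusted p = 0.0022), -0.66 (SE 0.16, adjusted p = 0.0099) and -0.72 (SE 0.15, adjusted p = 0.0013 in edgeR). The call at 15 min was lost without KCl replicate 1 (adjusted p = 0.069) and without either Bic sample (adjusted p = 0.069 and 0.16), while that at 45 min was kept with each sample left out. At 180 min the level was 154 and 164 CPM with KCl and 131 and 169 CPM with Bic, back among or above the basal samples. In the position code of their labels, the KCl and Bic libraries of 15 and 45 min carry the letter B, those of 180 min A and basal libraries both. Time cannot be told apart from what this letter stands for. Dbp fell with KCl at 15 min, from 15.5, 12.7 and 14.0 CPM to 6.50 and 5.30 CPM (log2 fold change -1.27, SE 0.32, adjusted p = 0.0077 in edgeR), and lost the call without KCl replicate 2 (adjusted p = 0.18). With Bic at 15 min its 2 samples, at 5.93 and 14.4 CPM, were far apart. The same KCl treatment for 15 min at 23DIV gave Dbp a log2 fold change of 0.02, which did not pass. Cry1 rose at 45 min of Bic, from 65.0, 60.3 and 63.3 CPM to 82.9 and 122 CPM (log2 fold change 0.71, SE 0.17, adjusted p = 0.0062 in edgeR), a call lost without Bic 45 min replicate 2 (log2 fold change 0.42, adjusted p = 0.34).

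By comparison, 3 of 10 members changed at 15 min of KCl against 7.22% of all 12027 genes tested, 2 at 15 min of Bic against 3.42% and 3 at 45 min of Bic against 7.45%. None passed with KCl at 45 or 180 min or with Bic at 180 min, against 0.765% of all genes in each, 92 genes that split into 73 higher and 19 lower, 61 and 31, and 83 and 9. Per1, with 55.6, 55.8 and 86.4 CPM in basal cultures, had 54.1 to 91.7 CPM over the 12 samples with KCl or Bic and passed in none of these comparisons. Its log2 fold change at 180 min of KCl was 0.07 (SE 0.22, adjusted p = 0.94 in edgeR), against 1.11 for the same treatment at 23DIV. The level of Ciart at 15 min of KCl, 15.0 and 12.8 CPM, and at 45 min of Bic, 18.3 and 10.2 CPM, lay below 19.5, 21.96 and 49.3 CPM in basal cultures without passing (adjusted p = 0.060 and 0.066 in edgeR). After 180 min of KCl it had 36.3 and 76.3 CPM, overlapping the basal samples. This log2 fold change of 0.95 did not pass, while the same treatment at 23DIV gave 1.80. Cry2, Nr1d1, Per3 and Bhlhe40 passed with neither stimulus at any of the 3 times. Bhlhe40 had 3 to 21 counts per library with KCl or Bic and 4 to 11 in basal cultures, and its highest log2 fold change, 1.52 at 180 min of KCl, had a wide error and did not pass (SE 0.59, adjusted p = 0.26 in edgeR).

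Of the further clock genes, 5 of 19 changed at 15 min of KCl, 4 at 15 min of Bic and 6 at 45 min of Bic. Noct, which encodes a phosphatase with clock-driven expression, rose in all 3 comparisons (log2 fold changes 1.20, 0.97 and 1.05), as did Npas2 (0.90, 0.91 and 0.68) and Nfil3 (1.54, 1.14 and 1.29), and Rora fell in all 3 (-1.04, -0.91 and -0.73). Rorb rose with KCl at 15 min (0.63) and Bic at 45 min (0.61), and Arntl with Bic at 45 min (0.72). Nfil3 was also the further clock gene that rose at 180 min, with KCl (0.89) and with Bic (1.32). The astrocyte markers, at 1601 to 2036 CPM summed in basal cultures, were at 2810 to 2855 CPM at 15 min of KCl, 2584 to 2891 CPM at 15 min of Bic and 2995 to 3477 CPM at 45 min of Bic. The numbers of astrocyte markers that rose were 3, 1 and 5 of 6. The oligodendrocyte lineage markers, at 260 to 434 CPM in basal cultures, were at 636 to 651, 509 to 570 and 600 to 663 CPM in these 3 groups, with 3, 1 and 2 of 5 tested higher. The neuronal markers were at 4089 to 4192 CPM in basal cultures and 4887 to 5397 CPM in these 3 groups, with 1, 2 and 2 of 5 higher. The part of these shifts in the changes of clock genes was not tested.

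**Figure D3:**
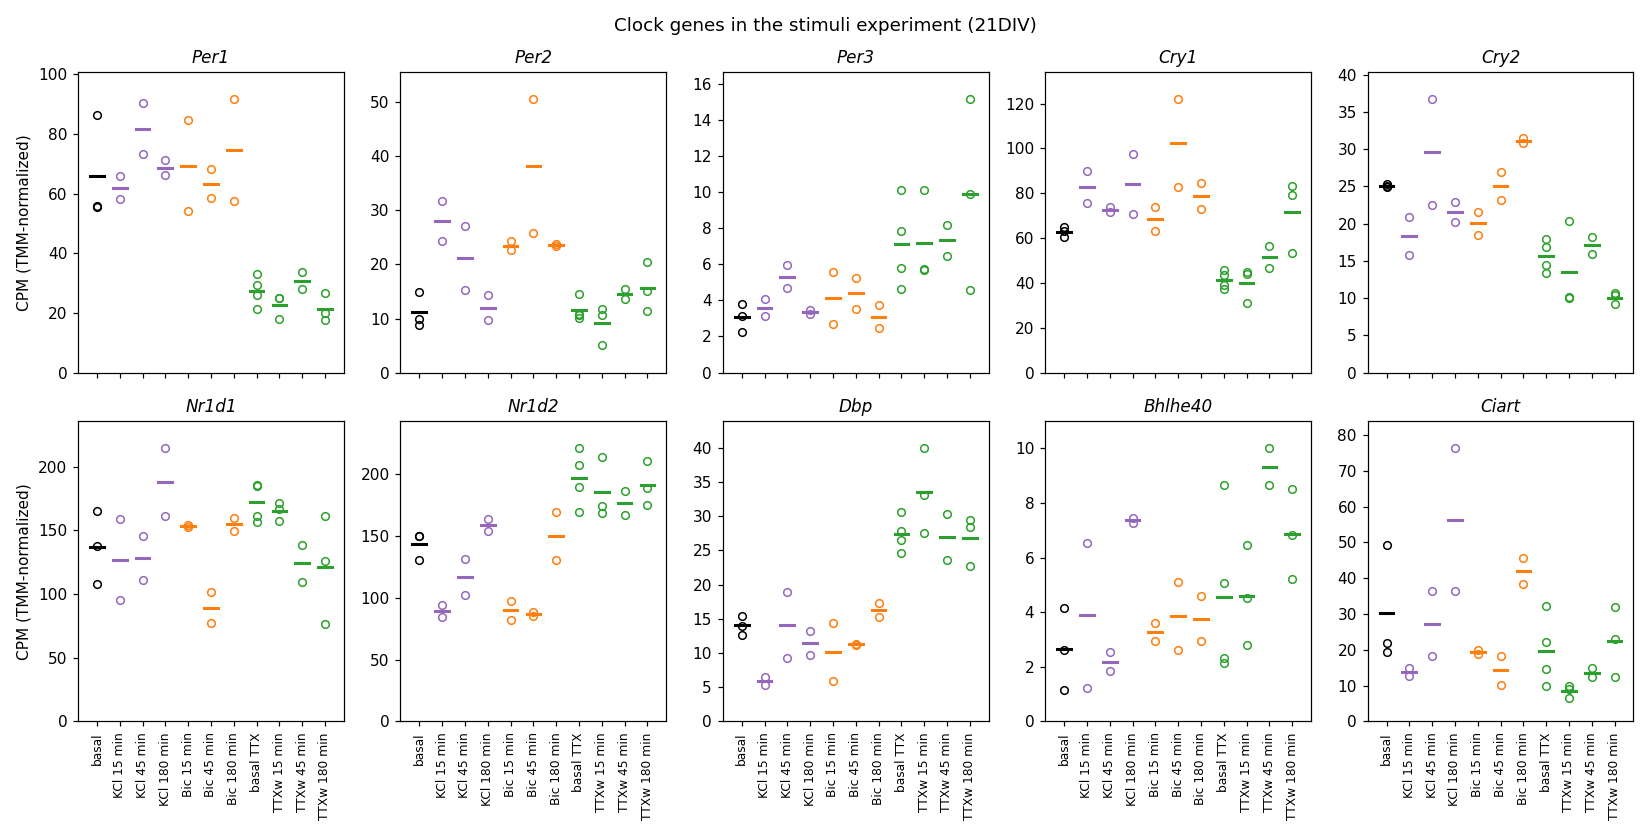
CPM (y axis, linear, from 0) of the 10 clock genes in each sample of the stimuli experiment (x axis: condition and time), with basal in black, KCl in purple, Bic in orange, TTX and TTXw in green and a bar at the mean of the group. Per2 peaks at 45 min of Bic, with 25.8 and 50.6 CPM, and every TTX and TTXw sample of Per1 lies below every other sample.

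Between cultures silenced with TTX for 48 h and basal cultures, 5 of 10 members passed, against 21.6% of all genes. Per1, Cry1 and Cry2 fell and Dbp and Per3 rose, and for each of these 5 the basal TTX samples did not overlap the basal samples. Per1 had 55.6, 55.8 and 86.4 CPM in basal cultures and 21.3, 26.1, 29.3 and 32.9 CPM in basal TTX, a fall of 1.24 on the log2 scale (SE 0.19, adjusted p = 2.98e-06 in edgeR). Cry1 had 65.0, 60.3 and 63.3 CPM in basal cultures and 37.2, 38.9, 45.8 and 43.8 CPM in basal TTX (log2 fold change -0.60, SE 0.16, adjusted p = 0.0045 in edgeR). Cry2 had 24.9, 25.3 and 25.02 CPM and 13.3, 16.8, 17.9 and 14.5 CPM (log2 fold change -0.69, SE 0.21, adjusted p = 0.011 in edgeR). The 3 genes encode repressors of the core loop.

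In the other direction, Dbp had 15.5, 12.7 and 14.0 CPM in basal cultures and 30.6, 27.9, 26.5 and 24.6 CPM in basal TTX (log2 fold change 0.94, SE 0.22, adjusted p = 0.0010 in edgeR). Per3 had 3.15, 2.23 and 3.79 CPM and 4.66, 5.81, 7.87 and 10.1 CPM (log2 fold change 1.25, SE 0.41, adjusted p = 0.016 in edgeR), on 6 to 11 and 7 to 28 counts per library. Nr1d2, with 150, 131 and 150 CPM in basal cultures and 190, 169, 221 and 207 CPM in basal TTX, did not overlap either, but its change stayed below 1.5-fold (log2 fold change 0.45, SE 0.12, adjusted p = 0.0041 in edgeR). Per2 (log2 fold change 0.05, SE 0.29), Nr1d1 (0.34, SE 0.17), Bhlhe40 (0.84, SE 0.52) and Ciart (-0.60, SE 0.31) did not pass. The calls of Per1 and Dbp were kept with each sample left out. Per3 lost its call without basal TTX replicate 4 (adjusted p = 0.12) or basal replicate 2 (0.074), and Cry1 dropped below 1.5-fold without basal replicate 1 (log2 fold change -0.57) or basal TTX replicate 1 (-0.54) or 2 (-0.56). Cry1 was also below 1.5-fold with size factors of edgeR's RLE method (-0.583) and in DESeq2 (-0.584). With the replicate number as a block, Per3 (adjusted p = 0.18) and Cry2 (adjusted p = 0.10 in edgeR) did not pass. Cry2 was also lost with counts summed over transcripts (adjusted p = 0.054 in edgeR). Per3 was also lost with counts thinned to the smallest library (adjusted p = 0.16 in edgeR).

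Of 19 further clock genes, 3 rose and 3 fell in basal TTX. Hlf and Tef rose, as Dbp had, by 1.4995 and 1.14 on the log2 scale (SE 0.19 and 0.13), and so did Prkaa1 (1.02, SE 0.37). Nfil3 fell by 1.87 (SE 0.21), from 36.01 to 48.7 CPM to 8.32 to 16.8 CPM, and Rora (-0.63) and Npas2 (-0.59) fell as well. The astrocyte markers summed to 3794 to 4431 CPM in basal TTX against 1601 to 2036 CPM in basal cultures, with all 6 higher, and the oligodendrocyte lineage markers to 767 to 853 CPM against 260 to 434 CPM, with 3 of 5 tested higher. The neuronal markers summed to 3318 to 3826 CPM against 4089 to 4192 CPM. The part of these in the changes of clock genes was not tested.

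After the toxin was washed out, Cry1 was the member that changed against basal TTX, and at 180 min. From 37.2, 38.9, 45.8 and 43.8 CPM in basal TTX it went to 79.2, 83.3 and 53.1 CPM, all above basal TTX, a log2 fold change of 0.81 (SE 0.17, adjusted p = 0.00052 in edgeR) that was called with each sample left out. This was 1 of 10 members, against 14.0% of all genes. None passed at 15 min, against 0.0% of all genes (758 at an unadjusted p under 0.05 in edgeR and 0 called by DESeq2), or at 45 min, against 0.382%. Per1 stayed low throughout, with 24.9, 25.15 and 18.01 CPM at 15 min, 33.6 and 27.9 CPM at 45 min and 17.7, 19.9 and 26.6 CPM at 180 min. Dbp likewise had 22.8 to 39.96 CPM over the 8 TTXw samples, above the 12.7 to 15.5 CPM of basal cultures. Cry2 had its lowest mean of the experiment at 180 min, 9.16, 10.4 and 10.6 CPM, without passing against basal TTX (log2 fold change -0.62, adjusted p = 0.10 in edgeR). Nr1d1, with 76.5, 126 and 162 CPM at 180 min, overlapped basal TTX and stayed below 1.5-fold (log2 fold change -0.51, SE 0.18, adjusted p = 0.036 in edgeR). Of the further clock genes, Rorb (1.23) and Usp2 (0.72) rose and Prkaa2 (-0.61) and Tef (-0.60) fell at 180 min of TTXw. At that time the astrocyte markers summed to 5924 to 7624 CPM, the oligodendrocyte lineage markers to 1110 to 1352 CPM and the neuronal markers to 2024 to 2578 CPM, and their part in the result was not tested.

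The response to TTXw at 180 min, against basal TTX, was set against the responses to KCl and Bic at 180 min, against basal. Nr1d1 differed between TTXw and KCl, with log2 fold changes of -0.51 and 0.47 and a difference of -0.98 (SE 0.27, adjusted p = 0.017 in edgeR), 1 of 10 members against 8.31% of all genes. Its levels were 76.5, 126 and 162 CPM with TTXw against 162, 157, 185 and 185 CPM in basal TTX, and 162 and 215 CPM with KCl against 108, 138 and 165 CPM in basal cultures, and within neither pair did the groups separate fully. The difference was lost without TTXw replicate 1 (adjusted p = 0.053), KCl replicate 2 (0.17) or basal replicate 1 (0.062). Between TTXw and Bic, none of the 10 members differed, against 9.75% of all genes, and the difference of Cry2 (-0.93, SE 0.34) had an adjusted p of 0.081 in edgeR.

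KCl and Bic were compared directly at 21DIV in 3 pairs of groups of 2 samples. None of the 10 members differed at 15, 45 or 180 min, where 0.0%, 0.682% and 0.723% of all genes did, and edgeR's p was under 0.05 before adjustment for 0, 5 and 1 members (DESeq2 called 1 of all genes at 15 min). For Per2 the difference at 45 min, KCl minus Bic, was -0.86 on the log2 scale, with an approximate 95% interval from -1.43 to -0.29, and at 180 min it was -0.94, from -1.63 to -0.24. The adjusted p values were 0.23 and 0.29 in edgeR. For Cry1 at 45 min the difference was -0.50 (from -0.88 to -0.12), and for Nr1d2 it was 0.42 (from 0.10 to 0.75), while for Nr1d2 at 15 min it was -0.03 (from -0.37 to 0.31). With 2 samples a group these intervals are wide, and a missed threshold does not show that the stimuli act alike.

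**Figure D4:**
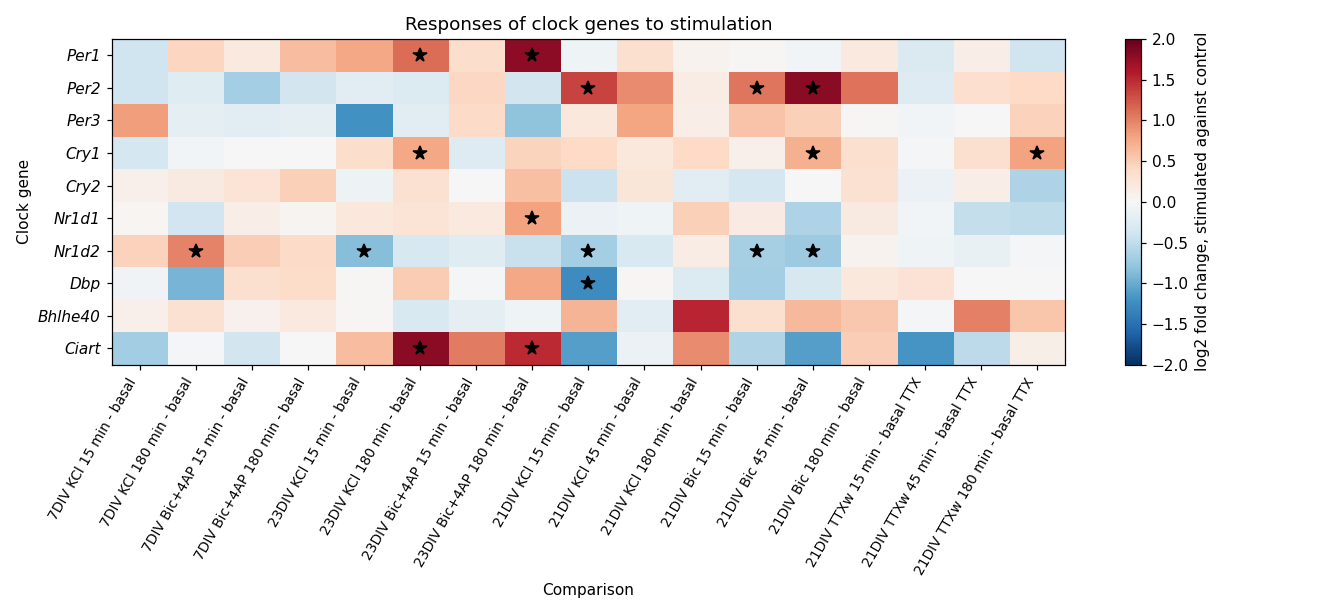
Log2 fold change (colour, from blue for lower to red for higher, scale from -2 to 2) of the 10 clock genes (y axis) in the 17 comparisons of stimulated with control cultures (x axis). Stars mark the 17 calls, which lie in rows Per1, Per2, Cry1, Nr1d1, Nr1d2, Dbp and Ciart, with the early falls of Nr1d2 in blue and the rises of Ciart and Per1 at 180 min at 23DIV in red.

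Between time points of the same stimulus, 4 changes passed, all of them rises with time. The groups behind these 4 changes differ as well in the letter of the position code in their labels. At 21DIV this letter was B for Bic at 45 min and A at 180 min. For Bic+4AP at 23DIV it was C at 15 min and E at 180 min. An effect of time cannot be told apart from an effect of what the letter stands for, which the labels do not say. Per1 rose from 12.6 and 13.1 CPM at 15 min to 45.3 and 24.1 CPM at 180 min of Bic+4AP at 23DIV (log2 fold change 1.45, SE 0.37, adjusted p = 0.0090 in edgeR), 1 of 10 members against 12.2% of all genes. Between 45 and 180 min of Bic at 21DIV, Ciart rose from 18.3 and 10.2 CPM to 38.5 and 45.6 CPM (log2 fold change 1.59, SE 0.39, adjusted p = 0.016), Nr1d1 from 101 and 77.5 CPM to 160 and 150 CPM (0.80, SE 0.22, adjusted p = 0.033) and Nr1d2 from 85.5 and 88.4 CPM to 131 and 169 CPM (0.79, SE 0.16, adjusted p = 0.0036, all in edgeR). These were 3 of 10 members against 3.04% of all genes. No member passed between 15 and 180 min at 7DIV with KCl (2.71% of all genes) or Bic+4AP (0.0%, 808 genes at an unadjusted p under 0.05 in edgeR and 17 called by DESeq2), or at 23DIV with KCl (0.902%), nor between 45 and 180 min at 21DIV with KCl (0.141%) or TTXw (12.3%). In the comparison with Bic, 4 of 6 astrocyte markers and 2 of 5 tested oligodendrocyte lineage markers fell between 45 and 180 min, from sums of 2995 to 3477 and 600 to 663 CPM to sums of 1842 to 2030 and 358 to 382 CPM. In that with Bic+4AP, 2 of 5 neuronal, 1 of 6 astrocyte and 2 of 5 tested oligodendrocyte lineage markers fell and 1 of 3 tested microglia markers rose. The part of these in the results was not tested. With 2 samples a group, single libraries carried these calls. That of Per1 was lost without Bic+4AP 180 min replicate 2 (log2 fold change 0.91, adjusted p = 0.23) or either 15 min sample (adjusted p = 0.064 and 0.065). That of Ciart was lost without Bic 45 min replicate 2 (0.25), Bic 180 min replicate 2 (0.056) or 3 (0.17), and that of Nr1d2 without Bic 45 min replicate 1 (0.053) or Bic 180 min replicate 3 (0.18, adjusted p in edgeR). Nr1d1 lost its call without any of the 4 samples compared (adjusted p from 0.065 to 0.30) and with the replicate number as a block (adjusted p = 0.085). With all samples kept, the call of Ciart was lost in DESeq2 (adjusted p = 0.076). With counts summed over transcripts, Ciart (0.12) and Nr1d1 (0.14) were lost in edgeR. With counts thinned to the smallest library, Nr1d1 (0.084) and Nr1d2 (0.059) were lost in edgeR.

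Over the 11 conditions of the stimuli experiment, the members fell into different patterns. Per1 had condition means from 21.4 CPM (180 min of TTXw) to 81.8 CPM (45 min of KCl), and the 4 silenced or withdrawn conditions were the lowest 4. Dbp had its 4 highest means in those conditions (26.9 to 33.5 CPM) and its lowest mean at 15 min of KCl (5.90 CPM). The neighbours within these sets of 4 differed by less than the spread of their samples. Condition means of log2 CPM of Per1 and Cry2 had a Pearson's r of 0.90 over the 11 conditions, those of Nr1d2 and Dbp 0.87, those of Per1 and Per3 -0.87, those of Per2 and Nr1d2 -0.83 and those of Per1 and Dbp -0.83. Ciart, Dbp and Per2 had the widest ranges of condition means, 2.54, 2.33 and 1.959 on the log2 scale. Among 9327 genes, those most like Per2 were Egr3 (r = 0.95), Arc (0.93) and Serbp1 (0.93), of which Egr3 and Arc are themselves activity-induced genes. The most like Dbp were Mcee (0.97), Vegfb (0.96) and Pdcd4 (0.96), and the most like Ciart were Urm1 (0.93), Slc7a3 (0.89) and Zbtb10 (0.88). These correlations describe 11 points that share libraries, controls and the contrast of silenced with other cultures, and they were not tested.

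Some members share their locus with another gene. In the GENCODE annotation of GRCm38, Nr1d1 overlaps Thra, Dbp overlaps Sphk2, and Cry2, Bhlhe40 and Ciart overlap noncoding genes, all on the opposite strand, while Per3 overlaps Camta1 on the same strand. Whether the counting used strand is not given in the sources used here, so that reads of such neighbours may be included.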

How the data were processed

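RNA of 55 samples was sequenced by CEL-Seq2, which reads the 3′ ends of transcripts. The authors aligned the reads to mm10 with STAR and counted them with ESAT, and the deposited values are raw counts per RefSeq transcript, with no normalization. Whether molecular identifiers were collapsed is not given in the sources used here. Accessions were matched to gene symbols with a RefSeq table (78905 of 97700 and 78229 of 96722 matched), and the 18.5% and 19.2% of counts on unmatched accessions were left out. The transcript with the most counts stood for its gene. Groups came from the sample labels. Genes with at least 5 CPM in at least 2 samples were fitted with edgeR 4.0.16 in R 4.3.3 (TMM normalization, quasi-likelihood test, Benjamini-Hochberg adjustment over all genes tested), separately in each experiment. The stage comparison used the 6 basal samples and the others all samples of the experiment. Calls needed both an adjusted p under 0.05 and 1.5-fold change, while differences between responses needed only the former. SE is the log2 fold change over the square root of F. The fits were tested on simulated counts. DESeq2 1.42.0, size factors of edgeR's RLE method, no filter, summed transcripts, thinned counts, the compared groups alone, the replicate number as a block and each sample left out were the alternatives. The named genes are the 10 members, further clock genes from a list, and the 3 genes most like the members of widest range. The members and lists were chosen with earlier results of these data known. The labels do not say that samples of a group came from separate cultures, so p-values measure the spread between these samples, which may be technical.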

Additional observations from a re-analysis of the deposited data

Results flagged for a closer look

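Effects of the same contrast differed between groups, by a test of the difference itself, for 2 members. The response of Nr1d2 to KCl differed between the stages at 15 min (-1.311 on the log2 scale, SE 0.27, adjusted p = 0.011 in edgeR) and at 180 min (-1.318, SE 0.27, adjusted p = 0.017 in edgeR), the response at 23DIV being the lower. The comparisons at 15 and 180 min share their basal libraries. The response of Nr1d1 at 180 min differed between TTXw and KCl (-0.9815, SE 0.27, adjusted p = 0.017 in edgeR), the response to TTXw being the lower. No value of the 10 clock genes in the only group of 4 samples, basal TTX, lay beyond Dixon's critical value.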

How the results depend on the processing

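Of the 34 calls of clock genes, 12 held under each alternative and with each sample left out, and none reversed. Without a filter on low counts the calls went from 2 to 6 for the differences between stages, from 9 to 14 for stimulated against control cultures at 21DIV, from 1 to 2 for TTXw against KCl and Bic and from 4 to 8 between time points. With counts summed over transcripts the last of these 2 sets had 0 and 2 calls. With the compared groups alone, the differences between stages had 1 call and TTXw against KCl and Bic had 2. The cause was not tested. With 1 sample left out, calls ranged from 4 to 6 between the stages, from 4 (without 23DIV basal replicate 2) to 9 for stimulated cultures of the maturation experiment, from 1 to 3 for the differences between stages, from 7 to 12 for stimulated cultures at 21DIV, from 4 to 6 in basal TTX, from 0 to 1 for KCl against Bic (1 without Bic 45 min replicate 1), from 0 to 2 for TTXw against KCl and Bic and from 1 to 5 between time points. Replicate numbers did not pair the samples, since deviations of same-numbered samples had a median correlation of 3.26e-05 (maturation) and 0.00764 (stimuli). With the replicate number as a replicate block, basal TTX had 3 calls in place of 5, and Ciart passed at 180 min of KCl at 21DIV (adjusted p = 0.022 in edgeR). Per3 and Bhlhe40 had at most 42 and 63 counts in a library, which limits the precision of their values.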
